A study of Mus musculus with 3 samples.

Results

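Ymac-1, a cell line established from a liver tumor of a Gnmt-/- mouse, was set against hepatocellular carcinoma (HCC) tissue of a Gnmt-/- mouse across every named gene of a whole genome array. The comparison used the array titled Ymac-1 and the array titled Gnmt-/- HCC, 2 of the 3 arrays of the series, and all 19084 of 19084 genes. Each gene was read from its probe with the highest mean log2 intensity. The value reported is the log2 intensity in Ymac-1 minus that in HCC, so a difference of 1 is a 2-fold difference.

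The HCC array held tumor RNA from a female Gnmt-/- mouse. The Ymac-1 array held RNA from the cell line, grown in DMEM, with a sex that the array's labels leave unstated. The array of normal liver, from a female wild type mouse, is quoted beside them as a further reading only. Both compared samples came from Gnmt-deficient mice, Ymac-1 from an aged one, and the ages of the mice behind the other arrays and whether the HCC array held the tumor that gave rise to Ymac-1 were not stated in the sources at hand. Ymac-1 is 1 line from 1 mouse kept through long serial culture, whereas the HCC array held tissue with its vessels, blood and immune cells. The study credits its normal liver and HCC array data to an earlier data set, and whether all arrays were run together was not stated. Each condition had 1 array, so that no difference could be checked against replicates and no P value was computed. Culture, clone, array and any difference in study or run cannot be told apart.

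GNMT is the liver enzyme that passes methyl groups from S-adenosylmethionine to glycine, and mice without it gather S-adenosylmethionine and develop liver tumors. Hepatocytes carry most functions of the liver under a set of transcription factors that includes HNF1, HNF4, FOXA and C/EBP proteins. They secrete plasma proteins and lipoproteins, make bile acids and break down amino acids, fats and drugs. Hepatocytes in intact liver seldom divide, and a dividing cell line runs genes for DNA replication and mitosis that are switched on by E2F factors and by the complex that binds the cell cycle homology region (CHR).

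The deposited values were background-subtracted linear intensities. Values under 50, referred to as the floor, were set to 50 before the log2 step, and a fold against a reading at the floor is given as a lower bound. Above the floor lay 10681 genes in HCC and 9723 in Ymac-1, of which 8778 lay above it on both arrays. The median probe read 38.5 in HCC and 27.6 in Ymac-1, and how the arrays were scaled to each other was not stated. Gnmt itself read 15.6 in HCC, 56.1 in Ymac-1 and 3583 in normal liver. Whether its probe lies in the disrupted part of the gene was not stated either.

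At a log2 difference of 1 or more, 2810 of 19084 genes (14.7%) were higher in Ymac-1 and 3033 (15.9%) were lower. After quantile normalization over the 3 arrays the shares were 16.0% and 13.6%. 98.8% of the genes that were higher and 84.3% of those that were lower as deposited kept that call, and 0 genes changed direction past the threshold. The lower side reached further, in that 299 genes were lower by a log2 difference of 5 or more and 45 were higher by as much, and 29 against 0 passed 9. At the threshold itself, 246 genes lay between 1 and 1.1 and 237 between 0.9 and 1, and on the lower side 238 lay just past it and 227 just within it. The median difference was 0 over all genes, since 7458 genes were at the floor on both arrays, and 0.12 over the genes above the floor on both, or 0.27 after quantile normalization. The split depended on the scaling, and centring each array on its median gave 3821 higher and 2074 lower.

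**Figure D1:**
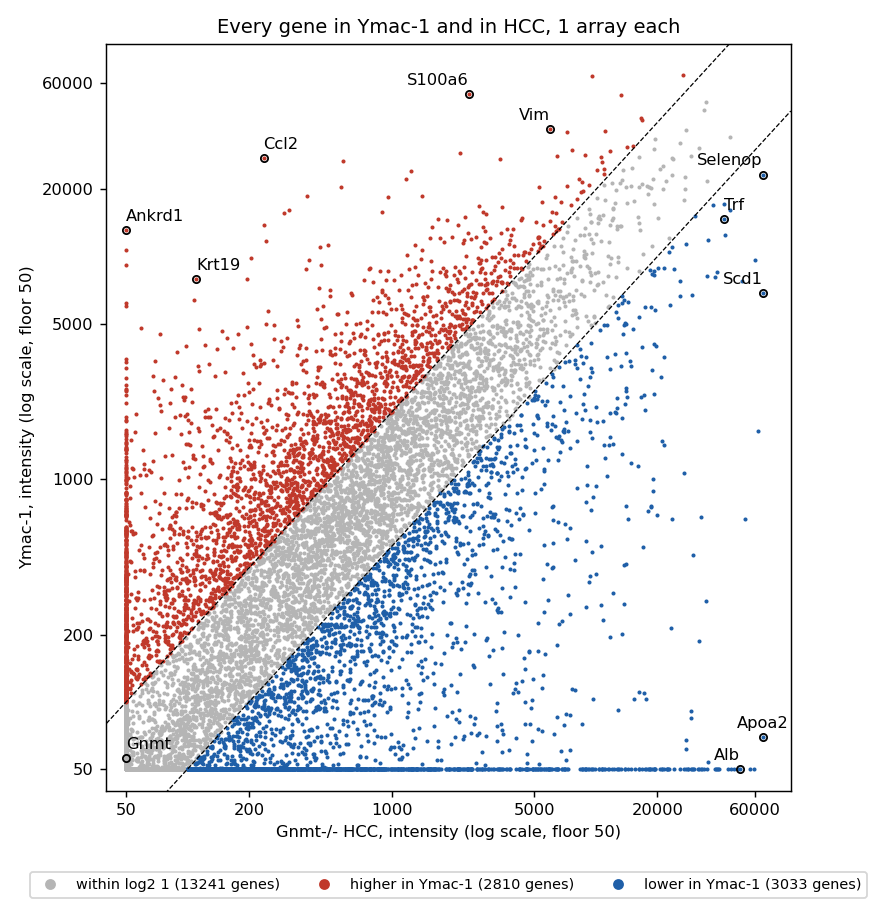
Intensity of every gene in HCC (horizontal) and in Ymac-1 (vertical) on log scales, with values under 50 drawn at 50 and dashed lines at a log2 difference of 1 in either direction. The blue points along the bottom edge are genes of HCC that lay at the floor in Ymac-1, and they reach beyond the HCC reading of Alb (50944), whereas the red points along the left edge end at 13168 in Ymac-1 (Ankrd1).

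The promoters of the genes at both ends were compared by short sequence motifs, and those shown here carry HNF1, HNF4, E2F or CHR letters. For 16 of 22 measured plasma carrier genes, and for 14953 of 19084 genes in all, RefSeq gave a promoter of 300 bases, 250 before and 50 after the start, on the mouse assembly GRCm38.p6. The first stretches hold the HNF1 letters GTTAATNAT or their reverse complement, in capitals, from the genes that held them and were lowest in Ymac-1. They encode serum albumin, an IGF-binding protein of hepatocytes, a hepatic uptake transporter and a fibrinogen chain.
Alb (chr5:90460818-90460866, plus strand): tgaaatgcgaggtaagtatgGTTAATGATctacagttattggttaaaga
Igfbp1 (chr11:7197708-7197756, plus strand): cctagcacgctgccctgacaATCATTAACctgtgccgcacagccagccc
Slco1b2 (chr6:141629432-141629480, plus strand): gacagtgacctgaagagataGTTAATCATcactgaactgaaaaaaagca
Fga (chr3:83026087-83026135, plus strand): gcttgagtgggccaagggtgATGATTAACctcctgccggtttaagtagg
The next stretches hold the HNF4 letters CAAAGTNCA, chosen in the same way, from an apolipoprotein, a cytochrome P450, an enzyme of histidine breakdown and clotting factor IX.
Apoa4 (chr9:46240642-46240690, plus strand): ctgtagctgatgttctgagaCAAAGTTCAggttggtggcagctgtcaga
Cyp2c70 (chr19:40187322-40187370, minus strand): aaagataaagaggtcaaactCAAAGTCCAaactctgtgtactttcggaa
Ftcd (chr10:76575444-76575492, plus strand): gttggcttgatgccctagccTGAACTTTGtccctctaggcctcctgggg
F9 (chrX:59999388-59999436, plus strand): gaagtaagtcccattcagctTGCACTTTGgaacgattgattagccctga

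At the other end are the E2F letters TTTNNCGC in promoters of the DNA replication genes that were highest in Ymac-1 among those holding them. Mcm5, Mcm6 and Mcm7 encode subunits of the replicative helicase, and Uhrf1 a protein that carries DNA methylation through replication.
Mcm5 (chr8:75109336-75109383, plus strand): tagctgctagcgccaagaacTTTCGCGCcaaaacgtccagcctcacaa
Uhrf1 (chr17:56303261-56303308, plus strand): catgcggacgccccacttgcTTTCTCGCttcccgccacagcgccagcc
Mcm6 (chr1:128359788-128359835, minus strand): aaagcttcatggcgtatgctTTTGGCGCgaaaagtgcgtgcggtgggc
Mcm7 (chr5:138172021-138172068, minus strand): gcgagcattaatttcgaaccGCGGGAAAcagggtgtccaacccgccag
The CHR letters TTTGAA stood in promoters of mitotic genes, here those of a cohesion factor, topoisomerase II alpha, a ubiquitin-conjugating enzyme of mitotic exit and a kinesin.
Cdca5 (chr19:6085060-6085096, plus strand): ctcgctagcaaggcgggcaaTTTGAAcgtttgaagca
Top2a (chr11:99024343-99024388, minus strand): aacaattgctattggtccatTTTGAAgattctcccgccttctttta
Ube2c (chr2:164769880-164769925, plus strand): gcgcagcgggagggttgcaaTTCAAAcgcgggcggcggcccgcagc
Kif2c (chr4:117178850-117178895, minus strand): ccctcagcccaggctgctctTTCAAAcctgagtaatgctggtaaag
The Cdca5 stretch holds the letters again in lower case and ends where the gene starts. A match is a description of these letters, and binding was not measured.

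Over all promoters, the HNF1 letters stood in 0.682%, against 1.29% of genes lower in Ymac-1 and 0.313% of genes higher in it. Among the 231 promoters of genes lower by a log2 difference of 5 or more, a limit chosen after the values were seen, 12 (5.19%) held them. The HNF4 letters stood in 1.22% of all promoters and 6.49% of those lower by 5 or more, and the C/EBP letters TTGCNNAA in 9.36% and 17.7%. The FOXA letters TGTTTAC went from 2.85% to 6.06%. These 4 liver motifs were thus each more frequent among the genes lowest in Ymac-1 than among all promoters, though most such promoters held none of a given motif. Because of the floor, only a gene bright in HCC can be lower by 5 or more. Motif shares were not computed for genes equally bright in HCC but not lower in Ymac-1. Whether the motifs go with a low reading in Ymac-1 or with a bright one in HCC was therefore not tested. Among lower genes above the floor on both arrays the HNF1 and HNF4 letters stood in only 0.897% and 1.04%, the latter below the share of all promoters. The E2F letters ran the other way, in 10.7% of genes higher in Ymac-1 and 5.81% of genes lower in it. They stood in 6.98% of all promoters and 8.38% of those of genes above the floor on at least 1 array.

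Of the cell cycle lists, DNA replication had the highest share of the E2F letters among all lists and mitosis that of the CHR letters. Of 41 DNA replication genes with a promoter, 17 (41.5%) held the E2F letters. Of 58 mitotic genes, 38 (65.5%) held the CHR letters, against 14.2% of all promoters, and 67.2% held CCAAT, the letters bound by NF-Y, against 38.2%. Over all genes higher in Ymac-1 the shares were 14.7% for CHR and 39.8% for CCAAT, near those of all promoters. Among genes above the floor on at least 1 array they were 12.2% and 38.3%. CCAAT was more frequent than in the mitotic genes in the MHC class II (87.5%), lipid synthesis (72.7%) and chaperone (71%) lists. The AP-1 letters TGANTCA stood in 5% of higher genes, against 6.73% of all and 5.33% of genes above the floor on at least 1 array. The ATF4 letters TGATGNAA stood in 1.97%, against 2.87% and 2.29%, so neither motif was more frequent among higher genes. The ends also differed in CpG content. The median ratio of observed to expected CpG was 0.65 over all promoters and 0.75 over genes above the floor on at least 1 array. It was 0.79 in higher genes, 0.64 in lower genes and 0.26 in genes lower by 5 or more, which were all bright in HCC. Each motif was searched on both strands of all 300 bases, and no motif contains another, though neighbouring matches can share bases.

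**Figure D2:**
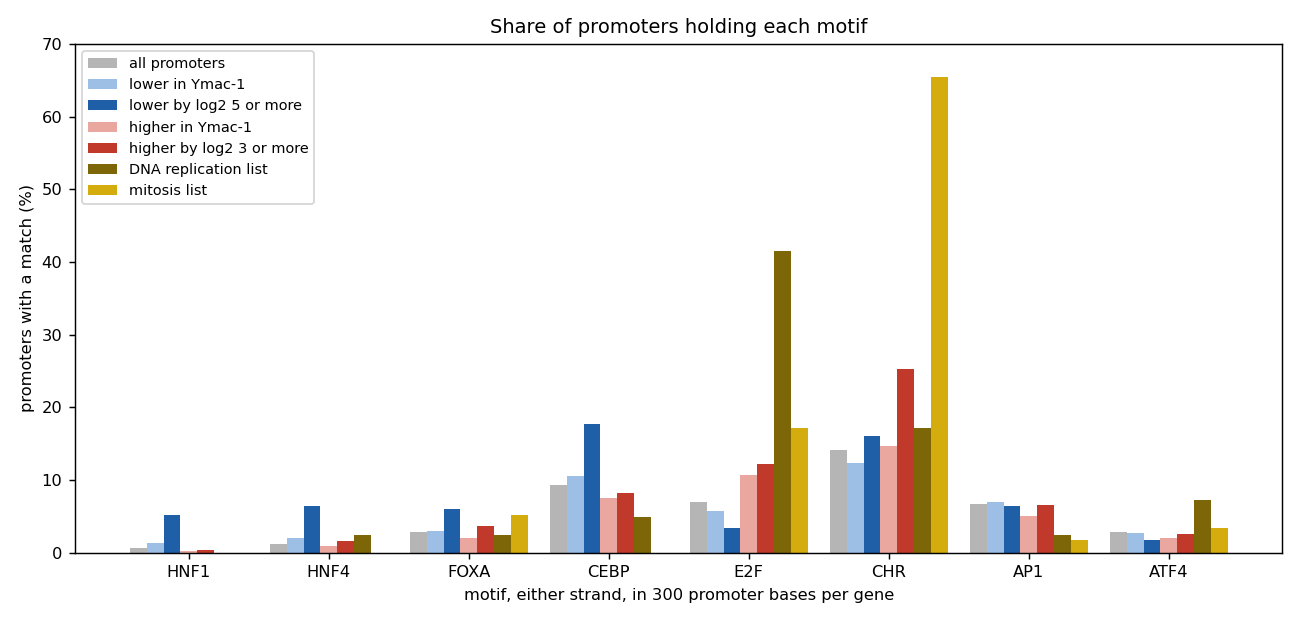
Percent of promoters holding each motif on either strand, for all genes with a promoter, for genes lower or higher in Ymac-1 at 2 thresholds each, and for the DNA replication and mitosis lists, with CCAAT left out. The liver motifs are most frequent in genes lower by log2 5 or more, the E2F letters in the DNA replication list (41.5%) and the CHR letters in the mitosis list (65.5%).

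The 12 genes with the largest positive difference among those above the floor on both arrays were named first. Ccl2, a chemokine that draws monocytes, read 236 in HCC, 27797 in Ymac-1 and 25.7 in normal liver, a difference of 118-fold. Cxcl5, a chemokine that draws neutrophils, was 80.7-fold higher (59.2 in HCC against 4779 in Ymac-1). Keratins 19 and 7, typical of bile duct rather than hepatocyte, were 71.6- and 59.2-fold higher, from 110.2 to 7891 and from 108 to 6382. Fhod3, which assembles actin filaments, was 60.8-fold higher, and Fbln2, an extracellular matrix protein, was 59.1-fold higher (236 in HCC against 13921 in Ymac-1). Sprr1a, a protein of the cornified envelope of squamous epithelium, read 297 in HCC against 15682 in Ymac-1. Anxa3, a membrane-binding annexin, read 314 in HCC against 16254 in Ymac-1. Lmnb1, a nuclear lamin, read 50.1 in HCC against 2535 in Ymac-1 and Aunip, a partner of Aurora A, 69.6 in HCC against 3407 in Ymac-1. Asns, which makes asparagine, and Cryab, a small heat shock protein, completed the 12 at 48.8- and 48.4-fold higher. In HCC these 12 genes were dim, reading between 50.1 and 384, which follows largely from choosing genes by the largest difference.

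A second set of 10 genes had their largest readings in Ymac-1 and lay at the floor in HCC, so that their folds are bounds. Ankrd1, a nuclear cofactor and a target of YAP, was at least 263-fold higher, with a reading of 13168. Havcr1, known as kidney injury molecule 1, read 10719.5, Msln, the mesothelial surface protein mesothelin, 6205, and Mboat1, an acyltransferase of phospholipids, 5967. All of these were at or under the floor in normal liver as well. Steap1, a surface protein of the STEAP family, Flnc, a filamin, Enah, an actin regulator, Mcm5 and Pclaf, a partner of PCNA, had bounds from 52.9-fold to 69.3-fold. The tenth, Wdr1, an actin-disassembly factor, read 3151 in normal liver and 9181 in Ymac-1 but 2.31 in HCC, and its other probe lay under the floor on all 3 arrays. It was the 1 gene of the array that read at least 1000 in liver and in Ymac-1 and lay at the floor in HCC.

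On the lower side, Apoa2, a major protein of HDL particles, read 65665 in HCC, 69.8 in Ymac-1 and 58554 in normal liver, 941-fold lower in Ymac-1. The HCC readings of Apoa2, Selenop and Scd1 (65665, 65665 and 65666) stood together at the top of the array's range, and a ceiling there would make their folds lower bounds. Apof, another apolipoprotein, was 662-fold lower, and Serpinf2, the inhibitor of plasmin, 451-fold lower. Slc25a47, a mitochondrial carrier of liver, read 27574 in HCC against 67.2 in Ymac-1, and Hpn, the membrane protease hepsin, 29082 in HCC against 84.7 in Ymac-1. Decorin (Dcn), a matrix proteoglycan made by stellate cells and fibroblasts, read 29179.7 in HCC against 90.7 in Ymac-1. Apoc4, the heme carrier Hpx, the glycerol phosphate dehydrogenase Gpd1, the tyrosine aminotransferase Tat, the cortisone reductase Hsd11b1 and the IGF-binding Igfals followed, 139.5- to 171-fold lower. Another 10 genes lay at the floor in Ymac-1 and had the largest bounds. Apoc1 (59389 in HCC) was at least 1188-fold lower, Ttr, which carries thyroid hormone, at least 1138-fold lower, and Alb at least 1019-fold lower. Igfbp1, Sult1a1, Mat1a, Apoa1, Pck1, Fabp1 and Pon1 were at least 784- to 989-fold lower. Most of these 22 genes are known chiefly as products of hepatocytes, and Dcn is not.

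**Figure D3:**
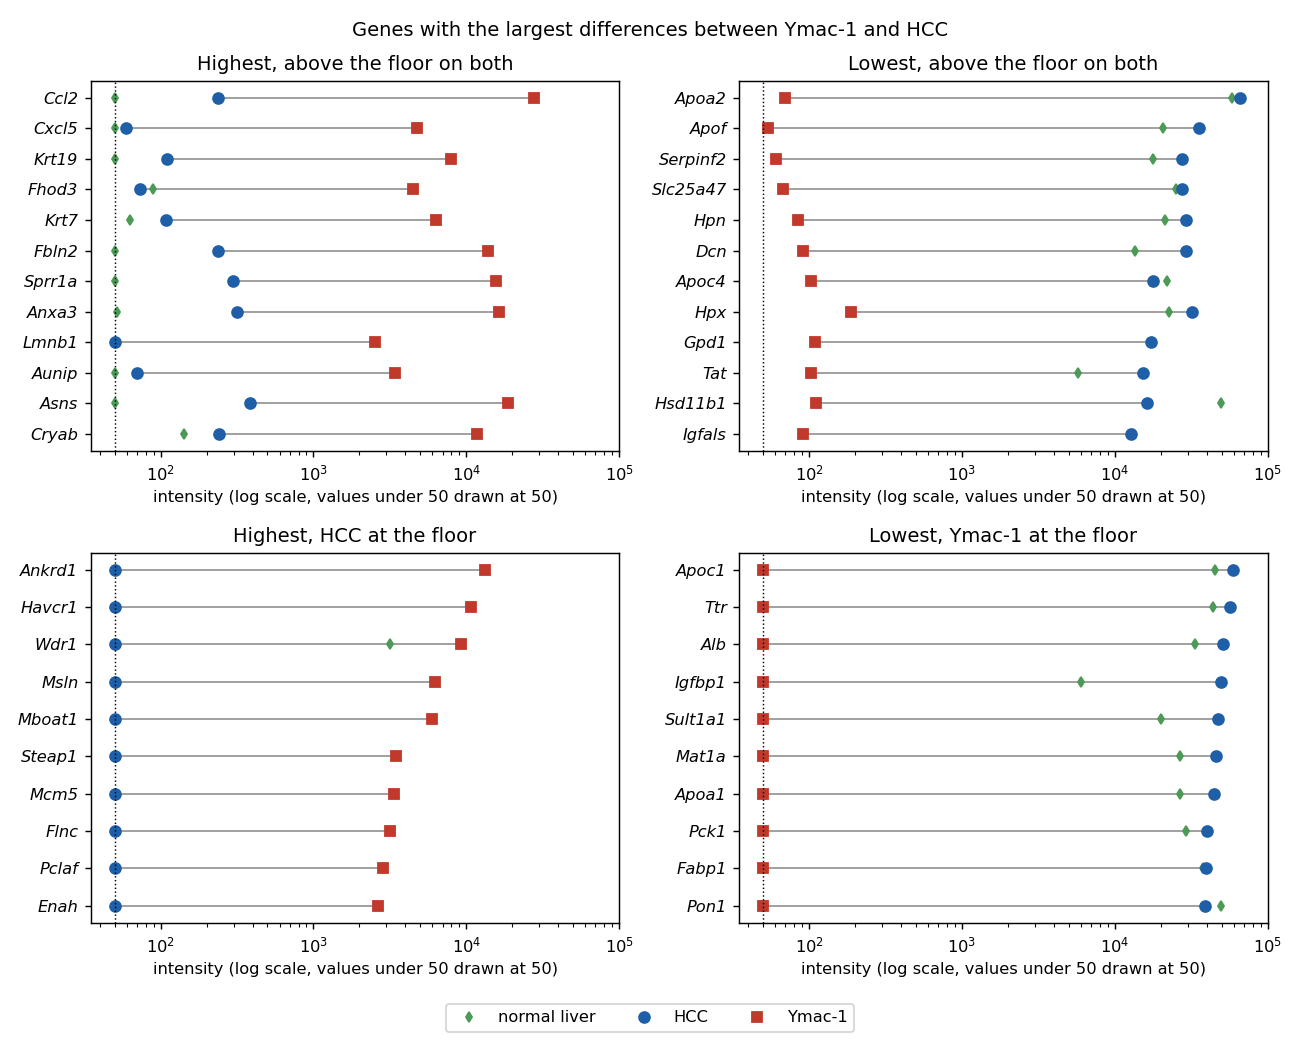
Intensities (log scale, values under 50 drawn at 50) of the genes with the largest differences, with HCC as blue circles, Ymac-1 as red squares and normal liver as green diamonds (hidden where they lie under the circle), 1 array each. The genes lowest in Ymac-1 were bright in both normal liver and HCC, whereas the genes highest in it were dim in both, with Wdr1 (3151 in normal liver) as an exception. Their level in HCC follows from choosing genes by the largest difference, a difference that does not use normal liver.

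Gene lists are described by how many members were higher or lower and by their median, to be read against 14.7% higher, 15.9% lower and a median of 0 over all genes. Among the 11626 genes above the floor on at least 1 of the 2 arrays, the shares were 24.2% and 26.1% and the median -0.04. The factors that run the hepatocyte program were mostly lower in the cell line. Of 25 measured hepatocyte transcription factors and nuclear receptors, 18 were lower, 1 was higher, and the median log2 difference was -3.21. Hnf4a, the nuclear receptor that marks hepatocyte identity, read 6113 in HCC, 752 in Ymac-1 and 3824 in normal liver and was 8.13-fold lower. Cebpa and Foxa3, activators of many plasma protein genes, read 2594 and 9638 in HCC against 53.3 and 103 in Ymac-1. Creb3l3, which drives secretory and lipid genes, and Ppara, the receptor that switches on fat oxidation, lay at the floor, at least 119- and 34.04-fold lower. Nr1h4, the bile acid receptor FXR, was 15.4-fold lower, and the estrogen receptor Esr1 at least 42.5-fold lower. Not every factor followed. Foxa2, a pioneer factor of endoderm, was 3.47-fold higher (318 in HCC against 1102 in Ymac-1), while Foxa1 read 379 in HCC against 369 in Ymac-1 and Cebpb, the C/EBP member of the acute phase, 4232 in HCC against 4595 in Ymac-1.

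The secreted plasma proteins were the lists with the lowest medians of all. Among 22 plasma carrier proteins 21 were lower and 0 was higher (median -7.26), and 12 lay at the floor in Ymac-1. Of the carriers, 3 kept bright readings. Rbp4, which carries retinol, read 45244 in HCC, 16255 in Ymac-1 and 37809 in normal liver, Selenop, which carries selenium, 65665 in HCC, 23348 in Ymac-1 and 62336 in normal liver, and Trf, which carries iron, 42362 in HCC, 14671 in Ymac-1 and 31044 in normal liver. Their log2 differences were -1.48, -1.49 and -1.53, far above the median of their list. Itih2, Orm1 and the copper protein ceruloplasmin (Cp) kept readings of 1004, 1145 and 1184.

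Of 27 clotting and fibrinolysis genes, 21 were lower and 3 higher, and the 3 higher genes are those that tissue cells rather than hepatocytes display. Tissue factor (F3), which starts clotting at the cell surface, was 9.43-fold higher (452 in HCC against 4264 in Ymac-1), the urokinase receptor Plaur 8.14-fold higher and thrombomodulin (Thbd) 2.33-fold higher. The lowest were Plg, the precursor of plasmin, Fga and prothrombin (F2), each at the floor and at least 766-, 641- and 629-fold lower. Pros1, the anticoagulant protein S, kept a reading of 1114 against 4477. Of 26 complement genes 22 were lower and 0 higher (median -5.15). The mannose-binding lectin Mbl2 and the terminal component Hc were at least 361- and 324-fold lower, and factor B (Cfb) read 53988 in HCC against 660.4 in Ymac-1. C5ar1, the C5a receptor, and Cd55, a regulator of the cell surface, read 72.2 and 146 in HCC against 72.6 and 1.94 in Ymac-1. Of 27 apolipoprotein and lipoprotein genes 25 were lower and 0 higher (median -6.51). Apob, the backbone of secreted particles, kept a reading of 2414 against 19348, while Mttp, which loads it with lipid, lay at the floor from 2051. Lpl, the lipase that clears triglyceride, read 10752 in HCC, 33.1 in Ymac-1 and 473 in normal liver.

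Most genes of drug oxidation lay at the floor in Ymac-1. Of 31 cytochromes P450 of families 1 to 4 and their reductase, 23 were lower, 2 higher, and 22 lay at the floor in Ymac-1 (median -3.94). Cyp2e1, the ethanol-oxidizing P450, read 33998 in HCC against 17.7 in Ymac-1, Cyp2c70, which makes mouse muricholic acids, 29314 in HCC against 5.19 in Ymac-1, and Cyp1a2 8798 in HCC against 16.02 in Ymac-1. The 2 that were higher, Cyp2s1 (106 in HCC against 1289 in Ymac-1) and Cyp1b1 (288 in HCC against 890.5 in Ymac-1), are P450s mainly of tissues other than liver. Of 29 conjugating enzymes 20 were lower and 3 higher. The sulfotransferase Sult1a1 was at least 949-fold lower, whereas Sult1c2 and the cholesterol sulfotransferase Sult2b1 were 15.96-fold higher and at least 9.55-fold higher. Ugdh, which makes the UDP-glucuronate that glucuronidation uses, read 6894 in HCC against 12139 in Ymac-1. Closely related members of these families can share sequence, and the specificity of their probes was not tested.

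Bile acid genes were lower in 25 of 31 cases and higher in 2 (median -2.09). Cyp7a1, the rate-limiting enzyme of synthesis, read 1259.6 in HCC against 1.94 in Ymac-1, the uptake transporter Slco1b2 33194 in HCC against 7.43 in Ymac-1, the export pump Abcb11 5075 in HCC against 9.83 in Ymac-1 and the phospholipid flippase Abcb4 18359.6 in HCC against 7.505 in Ymac-1. The exporter of the basolateral side, Abcc4, was 3.62-fold higher and the prostaglandin transporter Slco2a1 2.19-fold higher. Hsd3b7, an early enzyme of the pathway, kept a reading of 6658 against 25661.

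Among 44 genes of the urea cycle and amino acid breakdown 39 were lower and 0 higher (median -4.25). Cps1 and Arg1, the first and the last enzyme of the urea cycle, lay at the floor from 13199 and 26973 in HCC, while Asl, in its middle, kept 1549 of 11724. Cdo1, Ftcd and Tdo2, which break down cysteine, formimino groups and tryptophan, were at least 389-, 389- and 179-fold lower. The mitochondrial enzymes Got2, Glud1 and Oat, which many tissues use, kept readings of 8909.7, 7726 and 6711. In glucose production and glycogen storage 18 of 25 were lower and 2 higher. Pck1, the gate of gluconeogenesis, was at least 805-fold lower, and Fbp1 and G6pc, its later steps, at least 231- and 47.2-fold lower. Glycogen enzymes differed by form. The liver forms Gys2 and Pygl read 1901 and 5199 in HCC against -0.855 and 169.8 in Ymac-1, whereas Gys1 and Pygb, the forms of other tissues, read 179.9 and 207 in HCC against 194 and 345 in Ymac-1, and the primer glycogenin (Gyg) was 3.28-fold higher.

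Fat oxidation was lower in a graded way, with 25 of 32 lower, 1 higher and a median of -2.16. Fabp1 and Slc27a2, which bind and activate fatty acids in liver, lay at the floor, at least 788- and 607-fold lower. Cpt1a, the entry step of mitochondria, read 11602 in HCC against 1432 in Ymac-1 and Acaa2, the last thiolase, 60199 in HCC against 9620.2 in Ymac-1, while Acadl and Echs1 read 9369 and 6229 in HCC against 7689.9 and 5367 in Ymac-1. Oxct1, the enzyme with which tissues other than liver burn ketone bodies, was 7.28-fold higher (923 in HCC, 6722 in Ymac-1 and 189 in normal liver). In the methionine cycle, the pathway of GNMT itself, 15 of 23 genes were lower and 2 higher. Mat1a, which makes S-adenosylmethionine in hepatocytes, read 45855 in HCC, 46.1 in Ymac-1 and 26895 in normal liver, while Mat2b, the regulatory subunit of the form in other tissues, was 2.204-fold higher (526 in HCC against 1159 in Ymac-1). Bhmt, which remakes methionine from betaine, was at least 297-fold lower. Ahcy, which clears S-adenosylhomocysteine, kept 1242 of 11056, and Nnmt, which methylates nicotinamide, read 2905 in HCC against 2204 in Ymac-1. Of 27 iron, heme and metal genes 14 were lower and 2 higher. The iron sensors Hjv and Tfr2 were at least 171-fold lower and 99.98-fold lower, while ferritin heavy chain (Fth1) and metallothionein 1 (Mt1) read 21209 and 45211 in HCC against 20088 and 34538 in Ymac-1.

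Markers of the other cells of liver tissue were mostly low in Ymac-1 as well, and fewer cells of a type and less RNA per cell cannot be told apart in bulk RNA. Of 23 Kupffer cell and macrophage markers 21 were lower and 0 higher. Their summed intensity was 45870 in HCC, 14790 in normal liver and 3698 in Ymac-1, where Cd14 (2558) and Csf1r (546) made most of it. C1qa, Clec4f and Adgre1, which define these cells, lay at the floor from 9480.4, 1335 and 601. Of 23 endothelial markers 21 were lower and 0 higher, with sums of 26720 in HCC and 1286 in Ymac-1, and Cdh5, Vwf and Lyve1 at the floor. Lymphocyte markers were dim already, with 12 of 19 at the floor on both arrays, 5 lower and 0 higher. Their sums were 1242 and 197, and Ptprc, the pan-leukocyte CD45, read 293 in HCC against 51.1 in Ymac-1. Of 14 neutrophil and red blood cell markers 9 were lower and 0 higher, with sums of 27130 and 659. Hbb-b1, a beta globin, read 5294 in HCC, 5.42 in Ymac-1 and 347 in normal liver. MHC class II genes summed to 27940 and 692, with 5 of 11 lower and 0 higher. H2-Aa and Cd74 lay at the floor from 19279.8 and 1521, and H2-DMb1 read 1245 in HCC against 473 in Ymac-1.

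Stellate cell and fibroblast markers held an exception. Of 24, 13 were lower and 1 was higher, with sums of 42750 in HCC and 15660 in Ymac-1. Fbln2 alone made 13921 of the latter. The defining markers Pdgfrb, Acta2, Col1a2 and Lum lay at the floor in Ymac-1 from 492, 342, 108 and 1328 in HCC. Of 23 fat cell and lipid droplet genes 12 were lower and 2 higher (sums 51960 and 14060). Fabp4 read 7149 in HCC, 88.6 in Ymac-1 and 78.1 in normal liver, while Plin2, the coat of lipid droplets in most cells, was 2.09-fold higher (4569.5 in HCC against 9557 in Ymac-1). The part that these other cells of the tumor tissue have in the differences of any list was not tested.

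**Figure D4:**
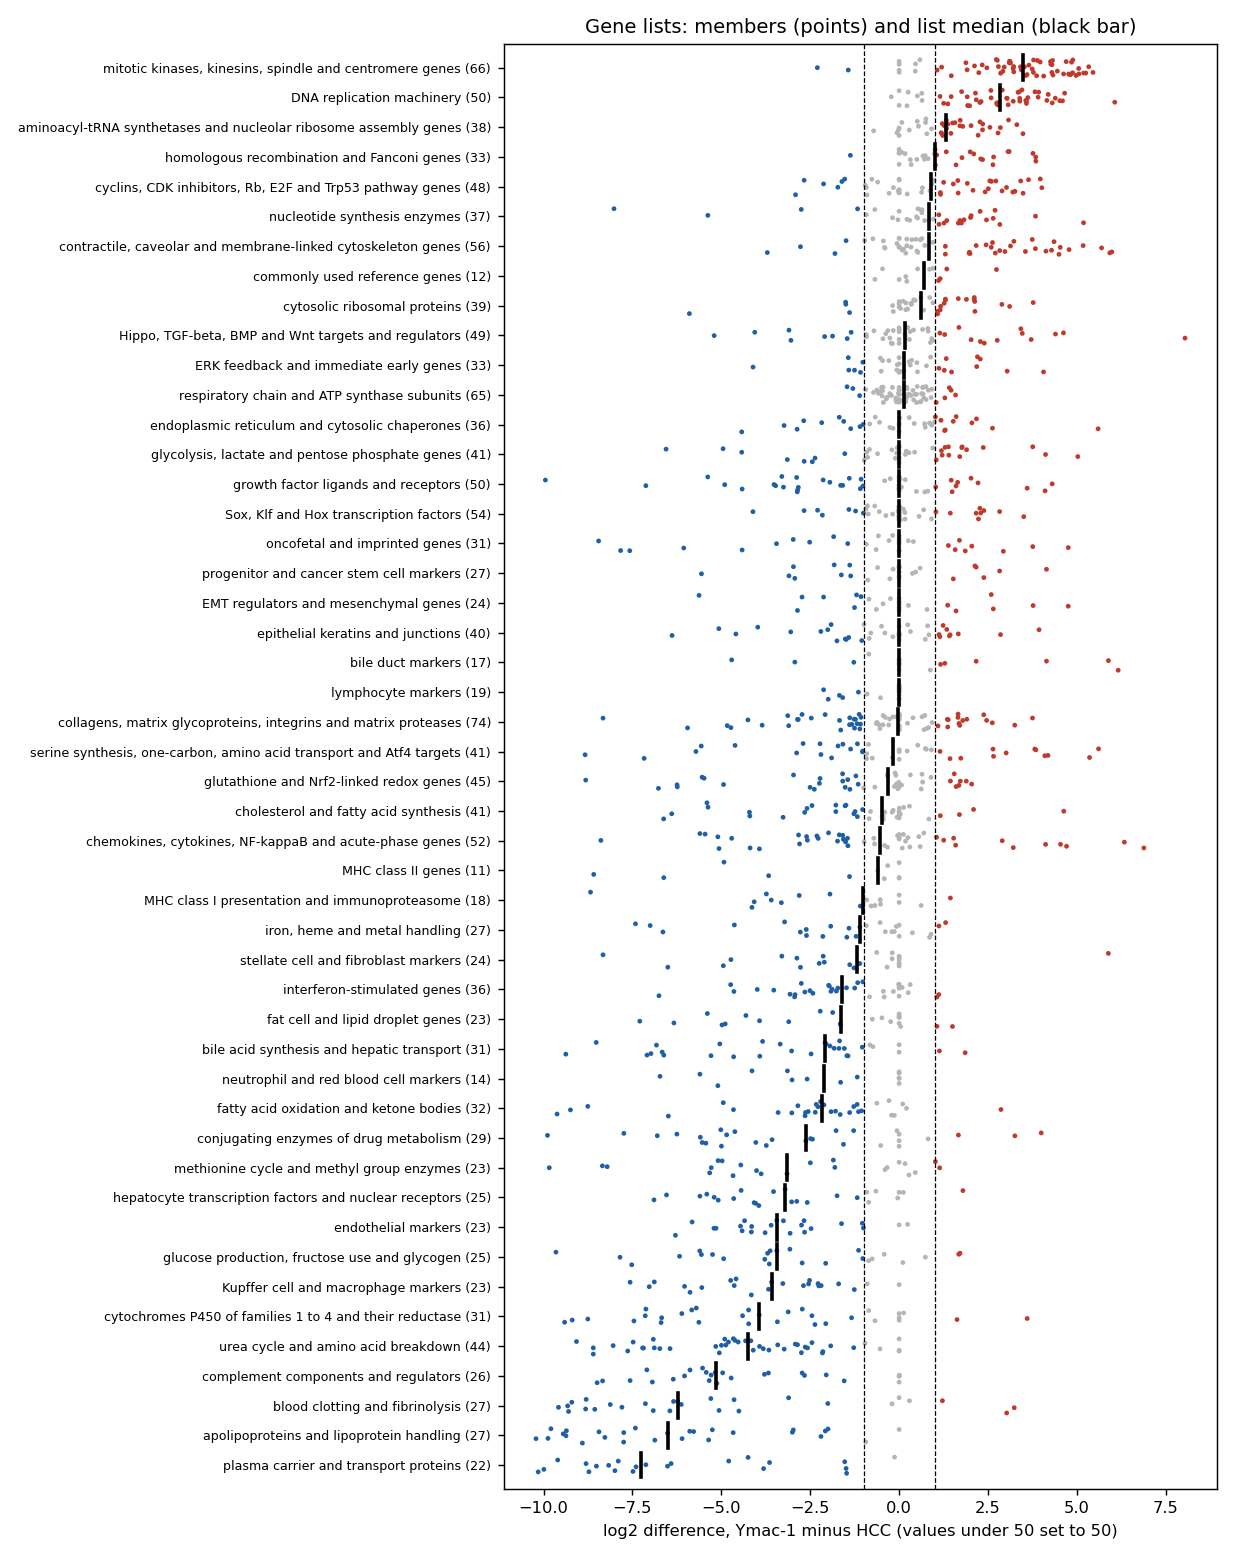
Log2 difference, Ymac-1 minus HCC, of each member of 48 gene lists (points; red higher and blue lower by 1 or more), with the list median as a black bar and the number of measured members in brackets. The medians run from -7.26 for plasma carrier proteins to 3.48 for mitotic genes, and the lists in the middle hold members far out on both sides.

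Bile duct markers, unlike hepatocyte markers, had more members higher than lower. Of 17 measured, 6 were higher, 3 lower and 6 at the floor on both arrays, and their sum was 6878 in HCC, 38210 in Ymac-1 and 2798 in normal liver. Beside Krt7 and Krt19, Cd24a, a surface sialoglycoprotein, was 17.7-fold higher (895 in HCC against 15843 in Ymac-1) and Sox9, the duct and progenitor factor, 4.49-fold higher. Pkhd1, the protein of polycystic kidney and liver disease, and the anion exchanger Slc4a2 were 2.44- and 2.24-fold higher. Epcam, the adhesion molecule that defines duct cells, and the water channel Aqp1 were on the opposite side, at the floor from 382 and 1308. Set against its label of a liver cancer line, Ymac-1 thus had hepatocyte markers both at the floor (Alb, Ttr and Apoa1) and above it (Trf, Rbp4 and Hnf4a). Some duct markers lay above the floor in Ymac-1 (Krt7, Krt19 and Sox9), but 10 of 17 lay at it, among them Epcam, Aqp1, Cftr and Muc1.

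Epithelial genes differed both ways, with 9 of 40 higher and 13 lower, and 33 lay above the floor on at least 1 array. Of all genes above it on at least 1 array, 24.2% were higher and 26.1% lower. Keratin 8, the simple epithelial keratin of hepatocytes, read 10538 in HCC, 28088 in Ymac-1 and 1859 in normal liver, and Krt20, a keratin of gut epithelium, 83.7 in HCC, 1279.8 in Ymac-1 and 11.6 in normal liver. E-cadherin (Cdh1) was 3.77-fold lower (817 in HCC against 217 in Ymac-1) and N-cadherin (Cdh2) 7.22-fold higher (866 in HCC against 6257 in Ymac-1). Gap junction genes differed by form. Gjb1 and Gjb2, the connexins of hepatocytes, were at least 83.7-fold lower and 24.1-fold lower, and Gja1, connexin 43, was 3.17-fold higher. Cldn1 was 33.6-fold lower, while Cldn2 was 2.36-fold higher and Cldn3 read 3781 in HCC against 4717 in Ymac-1. Esrp2, a splicing factor of epithelia, was 2.85-fold lower, and Ctnnb1, beta-catenin, 2.53-fold higher.

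Of 24 genes of the epithelial-mesenchymal transition 6 were higher and 7 lower, and 19 lay above the floor on at least 1 array. These counts are to be read against 24.2% higher and 26.1% lower among all genes above it on at least 1 array. Vimentin (Vim) read 5943 in HCC, 37270.3 in Ymac-1 and 812 in normal liver, 6.27-fold higher. Hmga2, a chromatin protein of embryo and tumor, was at least 27.04-fold higher, Ncam1 at least 13.6-fold higher, and S100a4, a calcium-binding protein of motile cells, 6.03-fold higher. Axl, a receptor kinase, and Loxl2, a collagen crosslinker, were 3.03- and 2.58-fold higher. The transcription factors named here that drive the transition did not pass the threshold upward. Snai1 read 662 in HCC against 368 in Ymac-1, Snai2 758 in HCC against 330.4 in Ymac-1, Zeb1 641 in HCC against 769 in Ymac-1 and Zeb2 119 in HCC against 6.27 in Ymac-1. Fibronectin (Fn1) read 5673 in HCC against 2698 in Ymac-1, and Tgfbi, a matrix protein induced by TGF-beta, was at least 49.5-fold lower.

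Markers of progenitor and cancer stem cells were higher in 6 of 27 cases and lower in 8, and 6 lay at the floor on both arrays. Above the floor on at least 1 array lay 21, to be read against 24.2% higher and 26.1% lower among all such genes. Prom1 (CD133) had 4 probes, and the 2 above the floor pointed in opposite directions (178 in HCC against 117 in Ymac-1 and 123 in HCC against 235 in Ymac-1). Thy1 (CD90) and Anpep (CD13) lay at the floor from 131 and 154, Cd44 was 4.39-fold higher, and Itga6 read 389 in HCC against 346 in Ymac-1. The pluripotency factors Sox2 and Nanog were at the floor on all 3 arrays. Pou5f1 read 2359 in HCC, 9.05 in Ymac-1 and 1346 in normal liver, by a single probe whose specificity was not tested. Sox4, Klf4 and Myc, on the other hand, were 7.09-, 5.21- and 2.88-fold higher. Among 54 Sox, Klf and Hox factors, 9 were higher, 7 lower and 22 at the floor on both. The other 32 lay above it on at least 1 array, to be read against the same 24.2% higher and 26.1% lower. Klf5, a factor of gut and squamous epithelium, and the homeobox genes Hoxb13, Hoxa10 and Hoxc6 lay at the floor in HCC and read 568, 245, 235 and 241 in Ymac-1.

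Of 31 oncofetal and imprinted genes, 10 were lower and 8 higher. Above the floor on at least 1 array lay 25, against 26.1% lower and 24.2% higher among all such genes. Igf2, the fetal growth factor, read 18984 in HCC, 889 in Ymac-1 and 53.00 in normal liver, and its imprinted neighbour H19 9547 in HCC, 21.3 in Ymac-1 and 15.5 in normal liver. The trefoil peptide Tff3 read 17518 in HCC, 11.3 in Ymac-1 and 2.59 in normal liver and Ly6d 11409 in HCC, 18.1 in Ymac-1 and 567 in normal liver. Afp, which takes the place of albumin in the fetus, was 10.9-fold lower (819 in HCC against 74.97 in Ymac-1) and glypican 3 (Gpc3) 5.73-fold lower (539 in HCC against 94.1 in Ymac-1). For Gpc3 the study's own mRNA measurement went the opposite way, with more in Ymac-1 than in Gnmt-/- liver tumors. On the higher side were Pkm, the pyruvate kinase of fetal and tumor tissue, 13.5-fold higher (2151 in HCC against 29112 in Ymac-1), Akr1b8 7.63-fold higher, the RNA-binding Igf2bp3 4.12-fold higher and the desaturase Scd2 3.24-fold higher, while the liver desaturase Scd1 was 9.61-fold lower. H19, Tff3 and Txn1 belong to 7 genes that read at least 1000 in HCC and lay at the floor on both other arrays.

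DNA replication and mitosis held the highest medians. 42 of 50 replication genes were higher and 0 lower, with a median of 2.84, and 57 of 66 mitotic genes were higher and 2 lower, with a median of 3.48. All 6 helicase subunits Mcm2 to Mcm7 were higher, from 10.4-fold higher (Mcm7) to at least 66.9-fold higher (Mcm5). Uhrf1, Dbf4, the activator of the CDC7 kinase, and the GINS subunit Gins1 were 24.2-, 22.9- and 20.99-fold higher. Among mitotic genes, Mki67, the proliferation marker, read 227 in HCC, 2120.1 in Ymac-1 and 20.8 in normal liver, and Birc5, which encodes survivin of the chromosome passenger complex, 127 in HCC, 3306 in Ymac-1 and 24.5 in normal liver. Cdca8, Kif23 and Cenph were at least 43.8-fold higher, 40.3-fold higher and at least 38.1-fold higher, and the kinases Aurka, Plk1 and Bub1 24.7-fold higher, 8.697-fold higher and at least 36.5-fold higher. Cenpm (246 in HCC against 47.6 in Ymac-1) and Cenpf (135 in HCC against 29.7 in Ymac-1) were the 2 that were lower. The other Cenpm probe did not pass the threshold, at 77.7 in HCC against 68.8 in Ymac-1. The promoters printed above with the E2F and CHR letters belong to these lists.

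Regulators of the cycle were less uniform, 22 higher and 6 lower of 48. Foxm1, the driver of mitotic genes, and E2f1 were at least 15.7-fold higher and 7.44-fold higher, and the D cyclins Ccnd1 and Ccnd2 8.12- and 11.2-fold higher. Cyclin E1 (Ccne1) was 9.17-fold higher, while Ccne2, whose probes differed in direction, was 3.303-fold lower by its brightest. CDK inhibitors of the Ink4 group were higher too. Cdkn2b read 152 in HCC against 1889 in Ymac-1, Cdkn2a 14.6 in HCC against 267 in Ymac-1 and Cdkn2d 45.7 in HCC against 808 in Ymac-1, whereas Cdkn1a and Cdkn1b read 7943 and 214 in HCC against 7102 and 250.4 in Ymac-1. Targets of p53 differed both ways. Mdm2, Ccng1 and Pmaip1 were 3.14-, 5.86- and 9.56-fold higher, while Btg2, Trp53inp1 and Sesn1 were at least 7.54-fold lower, 6.37- and 3.05-fold lower. Of 33 recombination and Fanconi genes 17 were higher and 1 lower, among them Rad51c (at least 14.4-fold higher), Exo1 (at least 13.6-fold higher) and Chek2 (8.35-fold higher) on the higher side and Rad51b (924 in HCC against 357 in Ymac-1) on the lower. The other Exo1 probe did not pass the threshold, at 27.6 in HCC against 50.4 in Ymac-1. Nucleotide synthesis was higher in 17 of 37 and lower in 4. Uck2, a uridine kinase, and Rrm1, a subunit of ribonucleotide reductase, were 36.4-fold higher and at least 14.3-fold higher, and the liver enzymes urate oxidase (Uox) and Upp2 were at least 259.6- and 41.6-fold lower.

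Of 50 growth factor ligands and receptors 21 were lower and 10 higher. The ligands Csf1, Pdgfb, Hbegf and Nrg1 were 19.8-, 17.2-, 12.1- and 4.06-fold higher, while Igf1 lay at the floor from 1499. The insulin receptor Insr was 11.1-fold lower and the growth hormone receptor Ghr 3.003-fold lower, whereas Igf1r was 2.81-fold higher and Egfr read 2495 in HCC against 2810.5 in Ymac-1. In the ERK list 9 of 33 were higher and 6 lower (3 lower after quantile normalization). Of these 33, 30 lay above the floor on at least 1 array, where 24.2% of all genes were higher and 26.1% lower. The AP-1 subunit Fosl1 and the ERK phosphatases Dusp5 and Dusp4 were 8.21-fold higher, at least 4.87-fold higher and 2.41-fold higher, while Fosb was at least 17.3-fold lower and Fos and Jun read 2651 and 904 in HCC against 1869 and 655 in Ymac-1.

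Targets and regulators of the Hippo, TGF-beta and Wnt pathways were higher in 13 of 49 cases and lower in 8. Above the floor on at least 1 array lay 44 of them, to be read against 24.2% higher and 26.1% lower among all such genes. The YAP targets Amotl2, Ccn1 and Ccn2 were on the higher side beside Ankrd1. Amotl2 read 391.9 in HCC against 9651 in Ymac-1, Ccn1 459 in HCC against 6013 in Ymac-1 and Ccn2 728 in HCC against 7815 in Ymac-1. Yap1 itself read 2301 in HCC against 3634 in Ymac-1, and its partner Wwtr1 (TAZ) was 2.43-fold higher. The activin subunit Inhba was 21.1-fold higher and the BMP target Id1 5.26-fold higher, while Id2 and Id3 read 22785 and 5832 in HCC against 12052 and 6565 in Ymac-1. Tbx3 and Lgr5, Wnt targets of hepatocytes around the central vein, were 36.8-fold lower and at least 8.57-fold lower, and the Wnt target Sp5 and the ligand Wnt7b were at least 6.77-fold higher and 11.03-fold higher.

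The cytoskeleton list was among the highest, with 27 of 56 higher and 4 lower. S100a6, a calcium-binding protein, read 2387 in HCC, 53889.8 in Ymac-1 and 539.6 in normal liver, and Cav1, the coat protein of caveolae, 566 in HCC, 20466 in Ymac-1 and 145 in normal liver. Annexins 1, 2 and 8 were 14.3-fold higher, 3.98-fold higher and at least 17.5-fold higher. The tubulins Tuba1a and Tubb2b were 23.1- and 27.5-fold higher, and Basp1 and Marcks, which link actin to the membrane, 19.5- and 8.77-fold higher. The actins Actb and Actg1 read 23979.7 and 19137 in HCC against 27316 and 22250.4 in Ymac-1, and smooth muscle actin (Acta2) was at least 6.85-fold lower. Of 74 matrix genes 26 were lower and 15 higher as deposited (median -0.04), and 17 lower and 15 higher after quantile normalization (median 0). Above the floor on at least 1 array lay 60, against 26.1% lower and 24.2% higher among all such genes as deposited. The lower ones included matrix of fibroblasts, such as biglycan (Bgn, 61.9-fold lower), Col14a1 (at least 28.5-fold lower) and Postn (at least 14.5-fold lower). The higher ones included genes of epithelial basement membrane and wounds, with integrin alpha 3 (Itga3, 13.5-fold higher), laminin beta 2 (Lamb2, 5.21-fold higher), tenascin C (Tnc, 9.53-fold higher), Timp1 (6.15-fold higher) and Col4a2 (3.16-fold higher).

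Of 38 tRNA synthetases and ribosome assembly genes 25 were higher and 0 lower (median 1.33). Rrp9, Nop56 and fibrillarin (Fbl), which work on ribosomal RNA in the nucleolus, were at least 11.2-fold higher, 9.92- and 8.44-fold higher. Of the 78 cytosolic ribosomal protein genes sought, 39 had a probe under their name, 16 higher and 4 lower. Their readings in Ymac-1 went from -3.17 (Rpl8) to 36806 (Rpl41), so some of these probes gave no signal for genes that every cell uses. The respiratory chain had few calls. Of 65 subunits 57 were within a log2 difference of 1, 5 higher and 3 lower (median 0.13). Atp5g3 read 23572 in HCC against 23233 in Ymac-1 and Uqcrc2 11438 in HCC against 10040.5 in Ymac-1.

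Amino acid supply held large differences on both sides, 12 higher and 16 lower of 41. Asns read 384 in HCC, 18739.9 in Ymac-1 and 24.03 in normal liver. Psat1 and Psph, which make serine, were 40.96- and 17.1-fold higher, Aldh18a1, which makes proline, at least 18.2-fold higher, and the mitochondrial folate enzymes Mthfd2 and Mthfd1l 8.06- and 6.23-fold higher. Atf4, the factor that drives several of these genes, read 7244 in HCC against 8469.6 in Ymac-1, and its targets Chac1 and Trib3 306 and 1219.8 in HCC against 4310.1 and 2036 in Ymac-1. Amino acid transporters differed by gene. Slc7a1, Slc7a5 and Slc3a2 were 14.4-fold higher, at least 6.30-fold higher and 3.33-fold higher, while the liver carriers Slc6a13, Slc38a4, Slc38a3 and Slc7a2 lay at the floor. Slc7a11, the cystine carrier, read 1608 in HCC, 344 in Ymac-1 and 11.4 in normal liver.

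Glycolysis and pentose phosphate genes were higher in 14 of 41 genes and lower in 8. Above the floor on at least 1 array lay 36, and of all such genes 24.2% were higher and 26.1% lower. The glucose carrier Slc2a1 was 2.28-fold higher, hexokinases Hk1 and Hk2 3.72- and 2.06-fold higher, and Pgd, of the pentose phosphate pathway, 3.26-fold higher (503 in HCC, 1639 in Ymac-1 and 118 in normal liver). Ldha read 18111 in HCC against 20464 in Ymac-1 and Tkt, a transketolase, 29359 in HCC against 28306 in Ymac-1. The carbonic anhydrase Car12 was at least 32.6-fold higher, and Car5a and Car3, forms of liver, were at least 94.1- and 30.96-fold lower. Lipid synthesis was lower in 18 of 41 and higher in 4. Mlxipl, the carbohydrate-responsive factor of liver, was at least 84.3-fold lower and the elongase Elovl2 at least 98.6-fold lower, whereas the cholesterol genes Idi1 and Msmo1 read 1417 in HCC against 1421 in Ymac-1 and 4095 in HCC against 4189.8 in Ymac-1 and Fads3, of the desaturase cluster, was 24.8-fold higher. Redox genes were lower in 19 of 45 and higher in 7. The glutathione transferases Gstk1 and Gstt1 were at least 109-fold lower and 75.95-fold lower, while Gstp1, of the form seen in many tumors, and Gsto1 were 2.93- and 3.297-fold higher. Thioredoxin (Txn1) read 22535 in HCC, 5.104 in Ymac-1 and 4.04 in normal liver, by a single probe. Chaperones were evenly split, 10 higher and 10 lower of 36. Of these 36, 33 lay above the floor on at least 1 array, to be read against the same 24.2% higher and 26.1% lower. Cryab was the highest, and Hspb1, Dnajb9 and Herpud1 were the lowest, 21.5-, 9.42- and 7.31-fold lower. The cytosolic chaperonin subunits Cct2, Cct3, Cct5 and Cct6a were 2.42-, 6.17-, 3.04- and 2.26-fold higher, and Hspa5, the BiP of the endoplasmic reticulum, was 2.57-fold lower (5764 in HCC against 2243 in Ymac-1). Of 12 commonly used reference genes 4 were higher and 0 lower, with a median of 0.69, and their differences ran from -0.68 (B2m) to 2.74 (Tubb5).

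Ccl2 and Cxcl5, the genes with the largest positive difference above the floor, were joined by other immune genes, though more of these were lower. Of 52 chemokine, cytokine and acute-phase genes 23 were lower and 11 higher. Ccl7 and Ccl20 lay at the floor in HCC and read 1307 and 869, and Ptgs2, the inducible cyclooxygenase, 1163. The alarmin Il33 was 9.26-fold higher, Cxcl1 2.08-fold higher and Nfkb2 and Tnfaip3 3.01- and 2.895-fold higher. The hepatic acute-phase genes were lower, with Crp and Apcs at the floor from 16767 and 2433, and Lcn2, of neutrophils and injured epithelium, read 16956 in HCC, 495 in Ymac-1 and 546 in normal liver. Cxcl12 was 33.5-fold lower. Interferon-stimulated genes were lower in 22 of 36 and higher in 2 (median -1.60). Iigp1 read 8578 in HCC against 79.4 in Ymac-1, Irf7 1678 in HCC against 66.99 in Ymac-1 and Isg15 364 in HCC against 162 in Ymac-1, while Ifit2 was 2.17-fold higher. In MHC class I presentation 9 of 18 were lower and 1 higher. The liver class I gene H2-Q10 was at least 410.4-fold lower and the immunoproteasome subunits Psmb8 and Psmb9 17.6-fold lower and at least 16.9-fold lower, while B2m, the shared light chain, read 34869 in HCC against 21735 in Ymac-1.

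The differences were not spread evenly over the chromosomes. Among the 8778 genes above the floor on both arrays, with a median of 0.12, chromosomes 12 and 14 had medians of -0.43 and -0.54 over 287 and 296 genes. Chromosomes 19 and 13 had the highest, 0.63 and 0.50 over 334 and 318 genes, and the other 16 lay between -0.07 and 0.35. Without the genes of the lists the 4 medians were -0.42, -0.56, 0.65 and 0.51. Over genes reading at least 500 on both arrays, with a median of 0.26, they were -0.34, -0.29, 0.49 and 0.49, and chromosome 18 was then the highest at 0.57. Of genes above the floor on at least 1 array, 36.8% of chromosome 12 and 38.6% of chromosome 14 were lower, against 20.4% of chromosome 19, and 13%, 11.9% and 34.3% were higher. The interquartile range of every chromosome spanned both signs. DNA copy number was not measured.

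**Figure D5:**
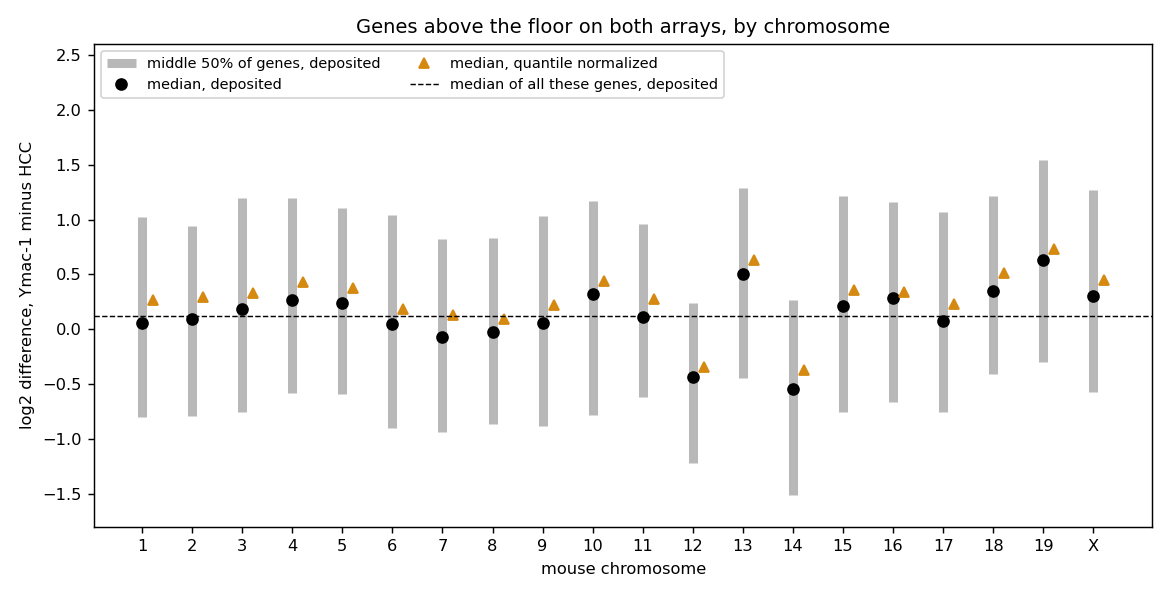
Median log2 difference, Ymac-1 minus HCC, by chromosome over genes above the floor on both arrays, as deposited (black circles, with grey bars for the interquartile range of the genes) and after quantile normalization (orange triangles), 1 array per condition. Chromosomes 12 (-0.43) and 14 (-0.54) lie lowest and 13 (0.50) and 19 (0.63) highest under both.

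Genes above the floor on at least 1 array were also read in runs of 15 neighbours in chromosome order. The lowest run, from Ubr7 to Dicer1 on chromosome 12, held the Serpina genes of plasma protease inhibitors, with a median of -2.93 and 9 of 15 lower. Next came runs with the carboxylesterase genes on chromosome 8 (Irx5 to Nlrc5, median -2.81), the organic anion carriers on chromosome 6 (Slco1b2 to Lrmp, -2.44) and the P450 genes on chromosome 7 (Cyp2b10 to Blvrb, -2.06). Each of these runs held a family of liver genes that lie side by side, together with other neighbours. The part of the family in each median was not tested. Chromosome 14 held 2 low runs without such a family, from Wdfy4 to Lrit1 (-2.75, 10 of 15 lower) and from Zdhhc20 to Ebpl (-2.03, 10 of 15 lower). The highest runs were Pkn2 to Syde2 on chromosome 3 (1.84, 11 of 15 higher, with Ccn1) and Ahnak to Tmem216 on chromosome 19 (1.83, 9 of 15 higher, with Incenp, Fen1 and Fads3). These runs were picked as the most extreme of all, and no test was made of them.

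The sex-linked genes were read in each array. Xist, the RNA that coats the inactive X chromosome, read 499.7 in HCC, 76.7 in Ymac-1 and 464 in normal liver, and Tsix and the 5 Y-linked genes measured were at the floor on all 3 arrays. The liver and the HCC came from female mice, and the sex of the mouse that gave Ymac-1 was not stated. Genes of the X chromosome had a median of 0.30 over 253 genes above the floor on both arrays.

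Probes of one gene were compared as a check of single readings. 1142 genes had more than 1 probe above the floor on either array, and the median range between their probes was 0.94 on the log2 scale. Of the 617 of them that were called, all such probes passed the threshold the same way in 320, all had the same sign in 509, and probes passed it in opposite ways in 36.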

How the data were processed

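Total RNA (1 µg per sample) was amplified, labelled with Cy5 and hybridized to the Mouse Whole Genome OneArray. The series holds 1 array each for normal liver, Gnmt-/- HCC and Ymac-1. The study described its own array as run with Ymac-1 RNA and credited the liver and HCC data to an earlier data set. The deposited values are linear probe intensities from which the authors had subtracted background. Neither the scanner nor any scaling of one array to another was stated. Arrays have no read depth, and precision is limited by their number.

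Of 26423 probes, 21876 had 1 gene symbol in the platform annotation, none had several and 4547 had none. They stood for 19084 genes, 2424 of them with several probes, of which the probe with the highest mean log2 over the 3 arrays was kept. Intensities under 50 were set to 50, the log2 difference was taken as deposited, and genes with a difference of 1 or more in size were called. Quantile normalization over the 3 arrays was the main alternative. No test was run, because each condition had 1 array. The computation used matplotlib 3.10.9, numpy 2.4.6, pandas 2.3.3 and scipy 1.17.1 under Python 3.11.15, and was tested on simulated data.

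Genes were selected for naming by rule, though the text does not give every gene so selected. The rule took the 12 largest differences each way among genes above the floor on both arrays, the 10 largest bounds each way, the 3 highest and 3 lowest members of each of 49 gene lists, the genes that the study measured by name, and defining and sex-linked markers. Other members were picked as examples after their values were seen. The members and lists were chosen with earlier results of these data known. Chromosomes, gene order and promoters came from RefSeq tables of GRCm38.p6.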

Additional observations from a re-analysis of the deposited data

Results flagged for a closer look

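The 4547 probes without a gene symbol entered no comparison above. Of these, 176 read higher in Ymac-1 than in HCC by a log2 difference of 1 or more and 241 read lower, which is 3.87% and 5.30% of them, smaller shares than among the named genes. They are drawn to attention because they carry signal outside the named genes, and there was no replicate array to set them against.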

How the results depend on the processing

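Centring each array on its median moved the share of called genes that were higher from 48.1% to 64.8%. A threshold of 2 on the log2 scale left 1072 genes higher and 1506 lower, and keeping genes above the floor on both arrays left 1784 lower. Under the other scalings, floors and probe choices the counts ran from 2500 to 3163 higher and from 2445 to 3519 lower. Of 470 named genes, 424 kept their direction and side of the threshold under all alternatives run on them, and of 49 list medians 33 did. None of either reversed. The list medians that lost the threshold after quantile normalization over the 3 arrays were those of iron and metal genes (-0.62), MHC class I (-0.89) and stellate markers (-0.78). The medians by chromosome stayed below the median of all genes on chromosomes 12 and 14 and above it on 13 and 19 under quantile normalization, and under the 2 choices of genes added after seeing the data. The motif shares at log2 differences of 3 and 5 were also added after seeing the data, and 9 of the 10 motif shares that moved, of 54 recomputed, did so there. The other was HNF4 in lower genes, 2.01% and 1.04% with genes above the floor on both arrays. No paired analysis was possible because each condition had 1 array. Dim genes limit the comparison, since 7458 genes lay at the floor on both arrays and a difference against the floor is a bound.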
